A study of Mus musculus with 19 samples.

Results

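Interferons reach the nucleus through a short relay. Type I interferons bind the receptor pair IFNAR1 and IFNAR2, and interferon gamma, the type II interferon, binds IFNGR1 and IFNGR2. Kinases of the JAK family, JAK2 among them for the interferon gamma receptor, then phosphorylate STAT proteins, which move to DNA. STAT2 works with IRF9 in the complex ISGF3, while STAT3 is best known for signals of the IL-6 and IL-10 families. SOCS1 and SOCS3 are induced by such signals and feed back on the kinases and receptors, SOCS1 mainly on interferon signals and SOCS3 mainly on those that pass through gp130 to STAT3. In microglia, the resident macrophages of the brain, the relay sets how strongly the cells answer to inflammation.

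The 9 genes described here are the receptor genes Ifngr1, Ifngr2, Ifnar1 and Ifnar2, the kinase gene Jak2, the STAT genes Stat2 and Stat3, and the feedback genes Socs1 and Socs3. They were chosen by symbol, and all 9 were found among the 56980 genes of the count table and passed the filter on low counts, which left 18739 genes to be tested. CD11b+ cells, which are microglia and other myeloid cells, were sorted with magnetic beads from the brains of male mice aged 3 to 4 months, and their RNA was sequenced. PARK7/DJ-1 KO mice, which lack the redox-sensitive protein DJ-1 through a gene-trap allele carried in every cell, were compared with wildtype (WT) littermates from a line backcrossed to C57BL/6NCrl. The mice received a single intraperitoneal injection of lipopolysaccharide (LPS), a bacterial cell wall component, at 4 μg per g body weight, or of PBS as vehicle, and were killed 6 h later. The 4 groups held 4 WT mice with PBS, 5 WT mice with LPS, 5 KO mice with PBS and 5 KO mice with LPS, with 1 library per mouse.

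Library totals ranged from 11936364 to 22788884 counts (median 17211939), so that 3 counts correspond to 0.139 to 0.256 CPM, the unit of levels here, which divides a gene's count by the TMM-scaled size of its library. Reads do not stand for separate molecules, so the limit covers counting error only. Park7, the targeted gene, lay between 20.6 and 32.1 CPM in the 9 WT libraries and between 0.457 and 5.38 CPM in the 10 KO libraries, so no library went against its genotype label. In KO LPS, replicates 5 and 1 stood apart from the rest and lay at opposite ends of the second principal component. Their correlations with the mean of the other libraries of the group were 0.929 and 0.957. In replicate 1, ribosomal RNA and mitochondrial genes took 1.42% of the counts, beside 0.253% to 0.672% in the other 18 libraries, and 7 of the 9 genes described here, all but Ifngr2 and Stat3, had their lowest KO LPS value in it. Leaving out replicate 1 changed no call of the 9 genes.

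The label of the cells was checked against marker genes of microglia and of other cells that the sort could hold. The summed CPM of 8 microglia markers ranged from 24510 to 38450 in WT PBS and from 25840 to 39220 in KO PBS libraries. After LPS it ranged from 10290 to 16650 in WT and from 10680 to 16570 in KO, and all 8 markers fell in both genotypes. The 4 monocyte markers all rose with LPS in both genotypes, and their sum moved from between 21.7 and 36.5 to between 170 and 302 CPM in WT, and from between 17.2 and 49.0 to between 98.5 and 226 CPM in KO. Neutrophil markers rose for 3 of 7 genes in WT and 4 of 7 in KO, with sums of 51.2 to 96.0 in WT PBS, 140 to 411 in WT LPS, 19.9 to 182 in KO PBS and 85.9 to 391 in KO LPS. The T and NK cell markers summed to at most 8.91 CPM in any library, and the T cell genes Cd3e, Cd3d and Trac were too low to be tested. Of the 3 markers tested, Gzma, a granule protease of cytotoxic cells, rose with LPS in both genotypes, with a log2FC of 2.19 in WT (adjusted p = 0.013 in edgeR) and 1.60 in KO (adjusted p = 0.0482). Of the other lists, 2 of 4 markers of border-associated macrophages fell in each genotype, 2 of 5 endothelial markers fell in each and 1 rose in KO, 1 of 4 markers each of astrocytes and neurons rose in each, and none of the 4 oligodendrocyte markers passed the test. The summed oligodendrocyte markers varied widely within each group, from 942 to 9529 CPM in WT PBS, 477 to 6567 in WT LPS, 961 to 7265 in KO PBS and 1034 to 11130 in KO LPS. The highest sum was that of KO LPS replicate 1, whose microglia markers summed to 12960 CPM. KO LPS replicate 5 had the lowest summed endothelial (75.4 CPM) and astrocyte markers (156 CPM) of the 19 libraries. In bulk samples, fewer cells of a type and less RNA per cell cannot be told apart. The part of these shifts in the results on the 9 genes was not tested.

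The genes lie in a few places of the mouse genome (GRCm39). Of the 4 receptor genes, 3 are close neighbours on the plus strand of chromosome 16, Ifnar2 at chr16:91169618-91202723, Ifnar1 at chr16:91281942-91305789 and Ifngr2 at chr16:91343906-91362512. Socs1 is on the minus strand of the same chromosome at chr16:10600104-10603875. Ifngr1 (chr10:19467697-19485977) and Stat2 (chr10:128106352-128128735) are on the plus strand of chromosome 10. Stat3 (chr11:100775924-100830450) and Socs3 (chr11:117856905-117860898) are on the minus strand of chromosome 11, and Jak2 is at chr19:29228677-29290505 on the plus strand. All are protein-coding.

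The promoter windows of the 9 genes in the RefSeq table (GRCm38.p6; 250 bases before the start and 50 after it) were searched on both strands for letters that STAT complexes are known to bind. The GAS motif TTCNNNGAA, bound by STAT dimers, was found in 3 of the 9 windows and in 8.3% of all 32851 windows. The ISRE core GAAANNGAA, bound by ISGF3 and by interferon regulatory factors, was found in 2 of 9 and in 8.56% of all. The palindromic STAT site TTCCNGGAA, which is a special case of the GAS motif, was found in 1 of 9 and in 1.15% of all. A match describes letters and is no evidence of binding. The matches in the 3 promoters of genes that rose with LPS, and the palindromic site of Ifnar2, are given 5′ to 3′ on the strand of the gene, with the motif in capitals.
Stat2 site, ISRE core on the opposite strand, chr10:128106136-128106164: gcaccctggtTTCAGTTTCctttccctag
Socs1 site, 2 overlapping ISRE cores, chr16:10603462-10603490: cttgccgGAAAGAGAAACCGAAagcgggg
Socs3 site, GAS, chr11:117860328-117860356: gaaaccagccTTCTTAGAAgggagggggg
Ifnar2 site, GAS and palindromic STAT site, chr16:91169447-91169475: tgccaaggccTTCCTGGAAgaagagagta
The sites start 221 bases (Stat2), 83 and 77 bases (Socs1), 154 bases (Socs3) and 214 bases (Ifnar2) before the RefSeq start, and the coordinates come from unique matches to GRCm39. The Socs1 and Socs3 sites lie within exons of longer transcripts in the GENCODE annotation, while the Stat2 and Ifnar2 sites lie upstream of all annotated exons of their genes. Ifnar1 has a GAS match that starts 5 bases before its RefSeq start, and the windows of Ifngr1, Ifngr2, Jak2 and Stat3 hold none of the 3 motifs. The upstream sequence of Stat2, the STAT gene with the larger log2FC in both genotypes, is shown whole up to its first annotated exon, since it holds the ISRE core of the one ISGF3 component among the 9 genes.
Stat2, chr10:128106117-128106351, plus strand: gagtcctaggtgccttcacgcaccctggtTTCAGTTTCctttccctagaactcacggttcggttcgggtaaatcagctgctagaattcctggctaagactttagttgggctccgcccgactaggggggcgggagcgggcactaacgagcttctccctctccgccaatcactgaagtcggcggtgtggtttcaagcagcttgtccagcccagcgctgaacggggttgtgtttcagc

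To set the genes side by side, their levels were divided by exon length and are given as CPM per kb. In WT PBS libraries Ifngr1 was the highest of the 9, at 216 ± 25.7 CPM per kb (SD, n = 4). Socs3 followed at 55.6 ± 8.46 and Ifngr2 at 36.2 ± 6.82 CPM per kb. Ifnar2, Stat3 and Ifnar1 came next, at 25.3 ± 4.42, 20.8 ± 2.31 and 18.9 ± 1.03 CPM per kb. The ranges of Ifngr2 and Ifnar2, of Ifnar2 and Stat3, and of Stat3 and Ifnar1 overlapped. Within every WT PBS library, however, Ifngr2 stood above Ifnar2 and Ifnar2 above Stat3. Stat3 stood above Ifnar1 in all but replicate 4, where they had 18.5 and 19.2 CPM per kb. These orders were not tested. Jak2 (10.7 ± 1.73), Stat2 (6.89 ± 0.558) and Socs1 (2.32 ± 0.608 CPM per kb) were the lowest, and none of these ranges met that of its neighbour. The ligand-binding chain of the interferon gamma receptor was therefore far above the rest in resting cells, and the feedback gene Socs1 was at the bottom. When the longest transcript served as the length, Stat3 (32.5 CPM per kb) stood above Ifnar1 (29.02) and Ifnar2 (28.8).

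After LPS the order was another. In WT LPS libraries Socs3 stood first at 545 ± 150 CPM per kb (SD, n = 5), above Ifngr1 at 235 ± 50.01, and the libraries of these neighbours did not overlap. Stat3 came next at 68.2 ± 7.92 CPM per kb. Stat2, at 36.3 ± 8.01, reached the range of the receptor genes Ifngr2 (44.4 ± 5.61) and Ifnar2 (27.8 ± 6.67). Jak2 (23.8 ± 8.26) and Ifnar1 (19.1 ± 3.54) overlapped, and Socs1 remained the lowest at 6.46 ± 2.33 CPM per kb. The KO LPS libraries had the same first 3 genes, with Socs3 at 632 ± 183, Ifngr1 at 224 ± 46.5 and Stat3 at 88.0 ± 31.3 CPM per kb (SD, n = 5).

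**Figure D1:**
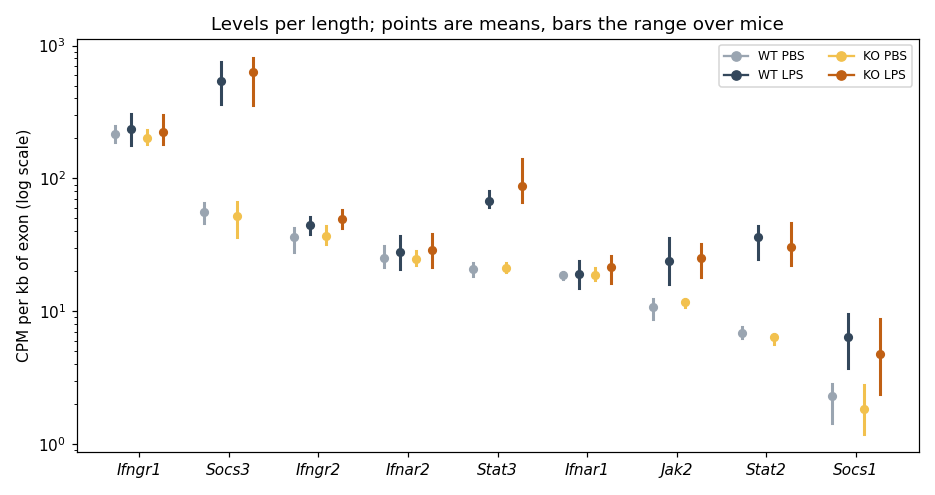
Level of each of the 9 genes in CPM per kb of exon (log scale), ordered by the mean in WT PBS. Points are group means and bars the range over the 4 or 5 mice; Ifngr1 is first in PBS libraries (216 in WT) and Socs3 in LPS libraries (545 in WT and 632 in KO).

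The first comparison asked which genes of the relay moved with LPS in each genotype. A gene was called changed at an adjusted p-value under 0.05 and a log2 fold change (log2FC) of at least 0.5 in size. Of the 9 genes, 5 rose and 0 fell in WT mice, while 18.4% of all genes tested were called higher and 17.4% lower. In KO mice the same 5 rose and 0 fell, against 20.1% higher and 19% lower among all genes. The groups did not overlap for 5 of the 9 genes in WT and for 4 in KO, against 37.8% and 32.8% of all genes. The 5 genes were Jak2, Stat2, Stat3, Socs1 and Socs3, so the kinase, the STATs and the feedback genes rose and the 4 receptor genes did not pass the threshold. The median log2FC of the 9 genes was 1.15 in WT and 1.10 in KO, beside medians of −0.06 and −0.01 over all genes tested. These medians and counts are descriptions, since the 9 genes were chosen with results of the data known.

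**Figure D2:**
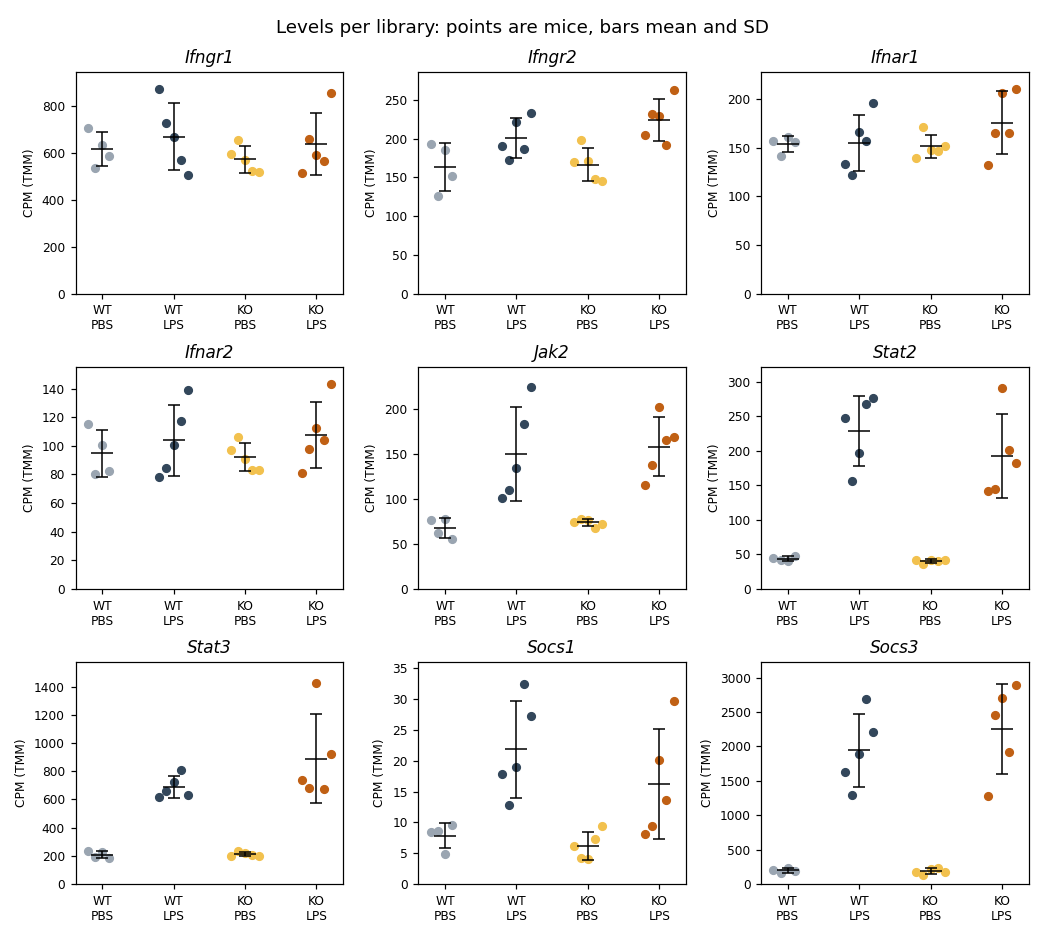
CPM of each of the 9 genes in every library by genotype and treatment, with 1 point per mouse and bars for the mean and SD. The LPS and PBS points of Jak2, Stat2, Stat3 and Socs3 do not overlap in either genotype, those of Socs1 overlap in KO, and those of the 4 receptor genes overlap in both.

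The interferon gamma receptor genes stood at different levels. Ifngr1, the chain that binds the ligand, lay between 535 and 707 CPM (median 609) in WT PBS and between 505 and 872 CPM (median 666) in WT LPS libraries. In KO it lay between 516 and 655 CPM (median 569) with PBS and between 515 and 855 CPM (median 591) with LPS. The groups overlapped throughout, and the log2FC with LPS was 0.12 (95% interval −0.22 to 0.46) in WT and 0.16 (−0.16 to 0.48) in KO. The highest value of KO LPS, 855 CPM, came from replicate 5, without which the log2FC was 0.03. In WT it was 0.0060 without WT LPS replicate 1 and 0.21 without WT LPS replicate 5.

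Ifngr2 encodes the chain that brings the kinase JAK2 to the receptor. The WT PBS libraries had 192.5, 126, 185 and 151 CPM, and the WT LPS libraries 190, 172, 221.5, 187 and 232.5 CPM. The KO PBS libraries had 169, 198, 171, 148 and 145 CPM, and the KO LPS libraries 205, 232, 229.5, 192 and 263 CPM. In KO 4 of the 5 LPS libraries were above every PBS library, and in WT the groups overlapped more widely. In the quasi-likelihood test of edgeR, adjusted after Benjamini and Hochberg, the log2FC was 0.29 ± 0.14 (SE; adjusted p = 0.0941) in WT and 0.43 in KO (95% interval 0.16 to 0.70, adjusted p = 0.00941). The KO value passed the adjusted p and missed the fold threshold. It crossed that threshold when KO PBS replicate 2, the highest of its group, was left out (log2FC 0.50, adjusted p = 0.00461).

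The type I receptor genes did not pass the threshold in either genotype. Ifnar1, which encodes a chain of the receptor pair, lay between 142 and 161 CPM in WT PBS and between 122 and 195 CPM in WT LPS. The spread was wider after LPS (coefficient of variation 5.44% and 18.6%). In KO Ifnar1 lay between 140 and 171 CPM with PBS and between 132 and 210.5 CPM with LPS. The log2FC was 0.01 (95% interval −0.28 to 0.30) in WT, where it changed sign under another scaling (−0.01 with the size factors of DESeq2), and 0.22 (−0.06 to 0.49) in KO, where it ran from 0.14 to 0.32 when 1 mouse was left out. Ifnar2, the chain with the higher affinity for the ligand, lay between 80.7 and 116 CPM in WT PBS, 78.0 and 139 in WT LPS, 82.9 and 106 in KO PBS and 80.9 and 143 in KO LPS libraries. Its log2FC was 0.13 (−0.23 to 0.50) in WT and 0.23 (−0.12 to 0.57) in KO. The WT value was 0.0047 without WT LPS replicate 5 and 0.24 without WT PBS replicate 1, and the KO value was 0.10 without KO LPS replicate 5 and 0.33 without KO LPS replicate 1. Ifnar2 shares 747 bases, 20.0% of its exon length, with the same-strand gene model Gm21970, which had 0 counts in every library. Reads in the shared bases cannot be told apart between the models.

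Jak2, the kinase of the interferon gamma receptor and of many cytokine receptors, roughly doubled. It had 76.2, 61.8, 77.9 and 55.4 CPM in WT PBS and 101, 110, 134, 183 and 225 CPM in WT LPS libraries. The KO PBS libraries had 74.6, 78.1, 76.6, 68.4 and 72.8 CPM, and the KO LPS libraries 116, 138, 203, 166 and 169 CPM. Every LPS library was above every PBS library of its genotype, and the WT LPS libraries were the most spread. The log2FC was 1.15 ± 0.21 in WT (SE; 2.22-fold, adjusted p = 0.000169) and 1.10 in KO (2.14-fold, adjusted p = 0.000106; edgeR's quasi-likelihood test).

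Stat2, the STAT of the ISGF3 complex, was low with PBS and rose about 5-fold. The PBS libraries had 44.4, 41.8, 39.8 and 47.9 CPM in WT and 41.7, 35.8, 41.7, 40.4 and 42.4 CPM in KO. After LPS the WT libraries had 247, 157, 197, 267 and 276 CPM and the KO libraries 142, 145, 290.1, 202 and 183 CPM. The LPS and PBS libraries were far apart in both genotypes, and of the KO LPS libraries 1 stood above and 4 stood below the WT LPS median of 247 CPM. The log2FC was 2.40 ± 0.20 in WT (SE; 5.26-fold, adjusted p = 2.7e-08) and 2.25 in KO (4.76-fold, adjusted p = 1.19e-08; edgeR's quasi-likelihood test).

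Stat3 carries signals of IL-6, IL-10 and related cytokines. It had 232, 192, 227 and 187 CPM in WT PBS and 620, 658, 724, 811 and 629 CPM in WT LPS libraries. It had 201, 234, 219.5, 209 and 201 CPM in KO PBS and 736, 684.5, 1423, 672 and 926 CPM in KO LPS libraries. No PBS library came near an LPS library, and KO LPS replicate 3, at 1423 CPM, stood above all others. The log2FC was 1.72 ± 0.19 in WT (SE; 3.28-fold, adjusted p = 6e-07) and 2.06 in KO (4.17-fold, adjusted p = 2.04e-08; edgeR's quasi-likelihood test), and 1.83 in KO without replicate 3. Stat3 shares 142 exon bases, 1.41% of its length, with Stat5a on the opposite strand. The library kit keeps strand, and whether the counting used it is not given in the sources used here.

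Socs1, the feedback gene of interferon signals, was the lowest of the 9 genes. It had 8.45, 8.55, 4.86 and 9.56 CPM in WT PBS and 17.8, 12.8, 19.03, 32.5 and 27.2 CPM in WT LPS libraries, from 74 to 500 counts. The KO PBS libraries had 6.14, 4.16, 4.06, 7.28 and 9.45 CPM, and the KO LPS libraries 8.04, 9.43, 20.2, 13.6 and 29.7 CPM. The WT groups did not overlap, whereas 2 of the KO LPS libraries lay within the range of KO PBS. The log2FC was 1.47 ± 0.38 in WT (SE; 2.78-fold, adjusted p = 0.00383) and 1.38 in KO (2.60-fold, adjusted p = 0.00322; edgeR's quasi-likelihood test). Without KO LPS replicate 5, the highest of its group, the KO value was 1.04 with an adjusted p of 0.0135.

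Socs3, which feeds back on gp130 receptors and is itself a target of STAT3, had the largest log2FC of the 9 genes in both genotypes. It had 207, 164, 235 and 186 CPM in WT PBS and 1624, 1296, 1897, 2685 and 2207 CPM in WT LPS libraries. The KO PBS libraries had 168, 130, 222, 236 and 170.5 CPM, and the KO LPS libraries 1282, 2461, 2700, 1923 and 2889 CPM. The lowest LPS library was more than 5 times the highest PBS library in both genotypes. The log2FC was 3.30 ± 0.27 in WT (SE; 9.82-fold, adjusted p = 2.28e-08) and 3.60 in KO (12.1-fold, adjusted p = 2.07e-09; edgeR's quasi-likelihood test). Socs3 shares 261 exon bases with the opposite-strand gene Gm57366, which had at most 60 counts in a library.

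**Figure D3:**
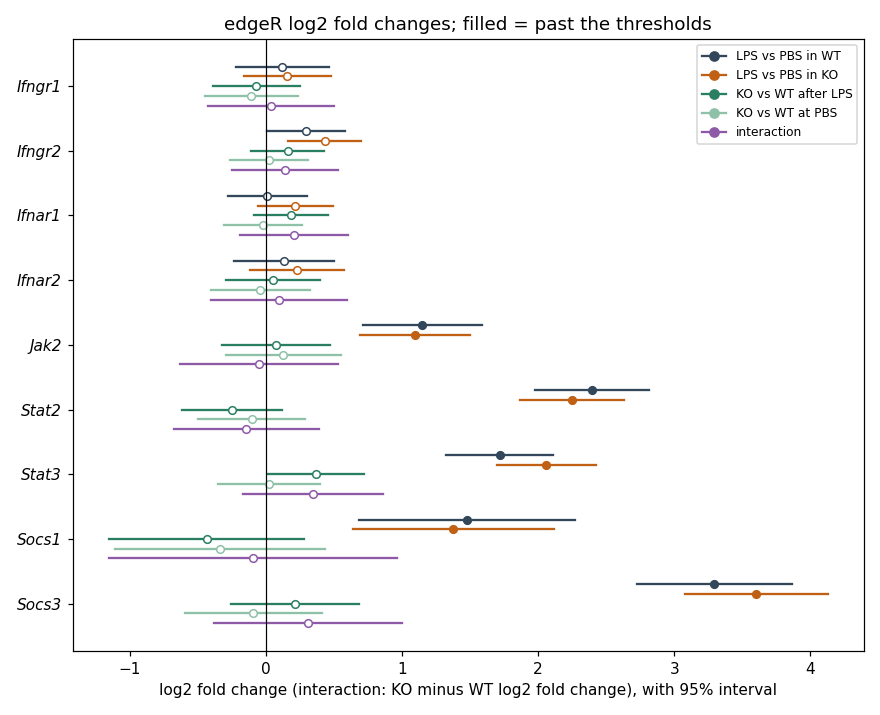
Log2FC of each of the 9 genes in the 5 comparisons, as points with 95% intervals, filled where past the thresholds. The filled points are those of Jak2, Stat2, Stat3, Socs1 and Socs3 with LPS, from 1.10 to 3.60, and no KO against WT or interaction value is filled.

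The second comparison asked whether the genes differed between KO and WT mice after LPS. The threshold was an unadjusted p-value under 0.05 with a log2FC of at least 0.5 in size, which 0.544% of all genes passed as higher and 0.763% as lower in KO. None of the 9 genes passed it in either direction, and none had groups that did not overlap, against 0.219% of all genes. At these background shares a count of 0 among 9 genes is no result about them. The adjusted p of every one of the 9 genes was 1 in edgeR's quasi-likelihood test, and 1 had an unadjusted p under 0.05. That gene was Stat3, with a log2FC of 0.37 (95% interval 0.02 to 0.72), which rested on KO LPS replicate 3 and was 0.13 without it. Of all 18739 genes tested, 482 had an unadjusted p under 0.05 in edgeR. Stat2 had −0.25 (−0.62 to 0.11), and leaving out 1 mouse at a time moved it between −0.45 and −0.15. It was −0.45 without KO LPS replicate 3, with an unadjusted p of 0.00754 in edgeR but under the fold threshold, −0.15 without replicate 1 and −0.16 without replicate 2 of the same group. Socs1 had −0.44 (−1.15 to 0.28), while Socs3 had 0.21 (−0.26 to 0.69) and Jak2 0.07 (−0.32 to 0.47). Leaving out 1 mouse moved Socs3 between 0.10 and 0.36. The receptor genes ranged from −0.07 for Ifngr1 to 0.18 for Ifnar1, and the interval of each receptor gene stayed within 0.46 on the log2 scale on either side of 0. With 1 mouse left out, Ifnar1 ran from 0.11 without KO LPS replicate 5 to 0.28 without WT LPS replicate 5, and Ifngr2 from 0.097 to 0.22 without the same libraries. Socs1 depended on KO LPS replicate 5. Without this library its log2FC was −0.77 with an unadjusted p of 0.0289 in edgeR, and 1 of the 9 genes was then called lower. Over all genes 270 were called lower in that fit, against 143 with all libraries, so the background share given above does not apply to it.

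With PBS the genotypes were compared in the same way. Of all genes 0.224% were called higher and 0.576% lower in KO, and for 0.971% the groups did not overlap. None of the 9 genes was called and none had groups without overlap. Their log2FC ranged from −0.34 for Socs1 (95% interval −1.11 to 0.43) to 0.13 for Jak2 (−0.30 to 0.55). Leaving out 1 mouse moved Socs1 between −0.53 and −0.21 and Jak2 between 0.054 and 0.20. The interval was widest for Socs1, the gene with the fewest counts.

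The difference between the LPS responses of the genotypes was tested as an interaction. It was called at an adjusted p under 0.05, which 0% of the 18739 genes passed in edgeR, with 180 genes at an unadjusted p under 0.05. None of the 9 genes was among the 180. The value nearest to the threshold was that of Stat3, whose log2FC with LPS was larger in KO by 0.34 (95% interval −0.17 to 0.86, unadjusted p = 0.176 in edgeR). It was 0.11 without KO LPS replicate 3. Socs3 had 0.31 (−0.38 to 1.00) and Stat2 −0.14 (−0.68 to 0.39). With 1 mouse left out, Socs3 ran from 0.19 without WT LPS replicate 2 to 0.45 without WT LPS replicate 4, and Stat2 from −0.34 without KO LPS replicate 3 to −0.051 without KO LPS replicate 1. The receptor genes had values from 0.04 to 0.21, the highest being Ifnar1. With 1 mouse left out, Ifnar1 ran from 0.13 without WT LPS replicate 2 to 0.30 without WT LPS replicate 5, and Ifngr2 from 0.049 without WT PBS replicate 1 to 0.24 without WT PBS replicate 2.

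Ratios within a library do not depend on its scaling, so the balance between genes of a pair was compared as log2 ratios of counts per kb. The 4 ratios in 4 comparisons were tested with exact two-sided permutation tests, and the p-values were adjusted over the 16 tests. The smallest p such a test can give is 0.00794 for 5 against 5 mice and 0.0159 where a group holds 4 mice. No ratio passed an adjusted p of 0.05.

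Socs3 exceeded Socs1 by a median of 20.8 times per kb in WT PBS and 86.4 times in WT LPS libraries, and by 29.5 and 134 times in KO. The lowest LPS ratio was 77.0 in WT and 92.4 in KO, above the highest PBS ratio of 45.6 and 51.7, so every LPS ratio was above every PBS ratio of its genotype. The log2 ratio was higher with LPS by 1.82 in WT (exact permutation p = 0.0159, adjusted 0.0762) and by 2.29 in KO (exact permutation p = 0.00794, adjusted 0.0635), the smallest p-values these groups allow. After LPS the ratio in KO was above that in WT by 0.73 on the log2 scale (exact permutation p = 0.0238, adjusted 0.0762), with ranges that overlapped between 92.4 and 96.3.

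Stat2 was a median of 0.328 of Stat3 per kb in WT PBS and 0.527 in WT LPS libraries. In KO the medians were 0.309 and 0.326. The log2 ratio in WT was higher with LPS by 0.65 (exact permutation p = 0.0317, adjusted 0.0847), and in KO by 0.20 (exact permutation p = 0.222, adjusted 0.395). The value in KO was 0.087 without KO LPS replicate 4, the library with the highest ratio of its group, and 0.12 without KO PBS replicate 2. After LPS the KO ratio was below the WT ratio, with a difference of −0.584 on the log2 scale (exact permutation p = 0.0238, adjusted 0.0762). The KO LPS ratios ran from 0.308 to 0.480 and the WT LPS ratios from 0.381 to 0.702. The difference of the differences was not tested.

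The receptor pairs were compared in the same way. Ifngr1 exceeded Ifngr2 by a median of 5.98 times per kb in WT PBS, 4.84 in WT LPS, 5.57 in KO PBS and 4.5 in KO LPS libraries. In KO the highest LPS ratio (5.16) was below the lowest PBS ratio (5.24), and the log2 difference was −0.29 (exact permutation p = 0.00794, adjusted 0.0635). In WT the ratios after LPS ranged from 3.45 to 7.28, and the difference was −0.20 (exact permutation p = 0.413, adjusted 0.508). It was −0.32 without WT LPS replicate 1 and −0.054 without WT LPS replicate 5. Ifnar1 was a median of 0.668 to 0.773 of Ifnar2 per kb in the 4 groups, and no comparison of this pair had an exact permutation p under 0.206. The size of these ratios depends on the gene length used. With the longest transcript, the mean levels of Ifnar1 and Ifnar2 were 29.02 and 28.8 CPM per kb in WT PBS, and 29.2 and 31.6 in WT LPS.

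**Figure D4:**
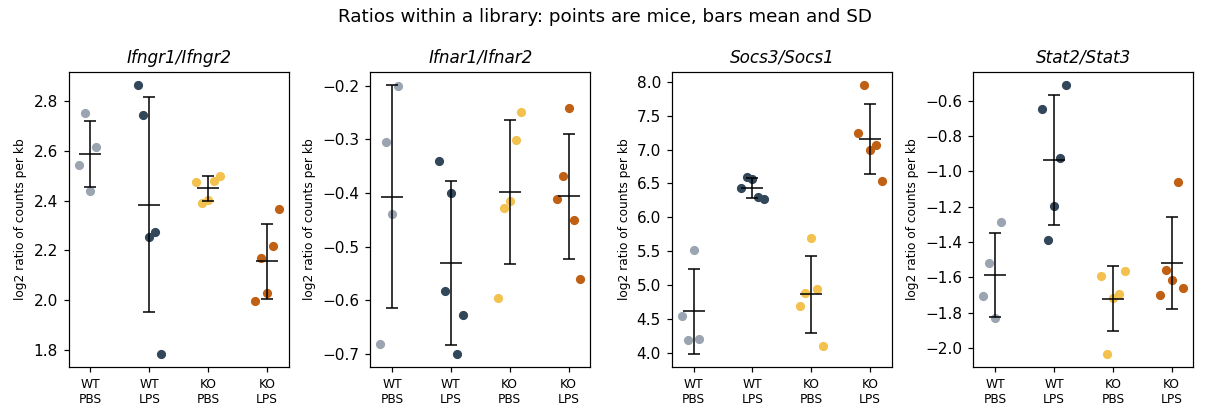
Log2 ratios of counts per kb within each library for 4 pairs of genes, with 1 point per mouse and bars for the mean and SD. The Socs3 to Socs1 ratios with LPS lie above all PBS ratios in both genotypes (medians 20.8 to 86.4 in WT and 29.5 to 134 in KO), and the Ifnar1 to Ifnar2 ratios overlap in the 4 groups.

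The interferon genes themselves had few counts, and none of the 7 examined passed the filter. Ifnl2 and Ifnl3 among them encode type III interferons, which use another receptor. Ifnb1, the type I interferon made first by many cells, had 0 counts in the 9 PBS libraries and 2, 0, 6, 4 and 14 counts in WT LPS and 1, 4, 7, 2 and 14 counts in KO LPS libraries. Ifna1, Ifna2, Ifna4 and Ifnl3 had 0 counts in every library, and Ifnl2 had 1 count in 1 library. Ifng, made mainly by NK and T cells, had at most 2 counts in a PBS library. After LPS it had 10, 1, 19, 25 and 8 counts in WT and 0, 1, 1, 5 and 0 counts in KO libraries. The groups overlap, with 4 of the 5 WT and 1 of the 5 KO libraries above 3 counts. The summed T and NK cell markers ranged from 2.47 to 8.91 CPM in WT LPS and from 0.505 to 4.03 CPM in KO LPS, and 1 of the 3 markers tested, the NK cell receptor Ncr1, was called lower in KO (log2FC −1.63, unadjusted p = 0.0277 in edgeR). It was no longer called without KO LPS replicate 1, 2 or 5, with −1.38, −1.31 and −1.44, and did not pass the filter on low counts without WT LPS replicate 1, 3 or 4 or KO LPS replicate 4. Whether Ifng moves with these cells was not tested.

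Around the 9 genes, 43 other genes of the relay or of JAK and STAT signalling by other cytokines were examined. The 7 interferon genes among them were too low to test. Of the other 36, 13 rose and 6 fell with LPS in WT, and 14 rose and 7 fell in KO. Over all genes tested, 18.4% were called higher and 17.4% lower in WT and 20.1% and 19% in KO, and the counts of genes that fell among the 36 are near these shares. Among 10 other receptor genes that use JAK kinases or STAT3, 1 rose and 5 fell in WT and 2 rose and 5 fell in KO. Osmr, the oncostatin M receptor, rose by 3.09 in WT and 3.17 in KO on the log2 scale, and Il21r, the IL-21 receptor, fell by 1.11 and 0.85. The genes that fell in both genotypes included Il6st, which encodes gp130 (−0.68 and −0.59), and Il6ra, the IL-6 receptor (−0.67 and −0.69).

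Among the 3 other JAK kinases, Jak3 rose by 1.39 in WT and 1.58 in KO and Jak1 by 0.97 and 1.26, while Tyk2, a kinase of the type I receptor, had log2FC values of −0.02 and −0.08. Irf9, the DNA-binding partner of STAT2, rose by 1.45 and 1.53. Of the 6 other SOCS family genes, 3 rose in WT and 2 in KO. Socs2 rose by 3.55 and 4.05 and Cish by 2.76 and 2.48, whereas Socs4, Socs5 and Socs6 lay between −0.42 and 0.16 and were not called. Of 11 other negative regulators, 4 rose and 1 fell in each genotype. Usp18, which blocks IFNAR2 signalling, rose by 3.92 and 3.62, Ptpn1, a phosphatase of JAK2, by 1.99 and 2.13, and Pias3, an inhibitor of STAT3, fell by 1.18 and 1.27.

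Genes known to be driven by STAT3 or induced by interferons were examined as well. Of 8 known STAT3 target genes, 7 rose in WT and 8 in KO, with medians of 3.03 and 3.11 on the log2 scale. Over all genes tested, 18.4% were called higher in WT and 20.1% in KO. Il1rn, the IL-1 receptor antagonist, rose by 8.47 and 8.57 and the transcription factor gene Nfil3 by 4.5 and 4.21. Of 8 genes known to be induced by interferons, 7 rose in each genotype, beside the same shares over all genes. The medians of the 8 were 4.79 and 4.61. The chemokine gene Cxcl10 rose by 6.84 and 6.73 and the antiviral gene Ifit1 by 4.92 and 4.55. Many of these targets also answer to NF-κB and other LPS signals, and their levels do not show which factor acted.

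**Figure D5:**
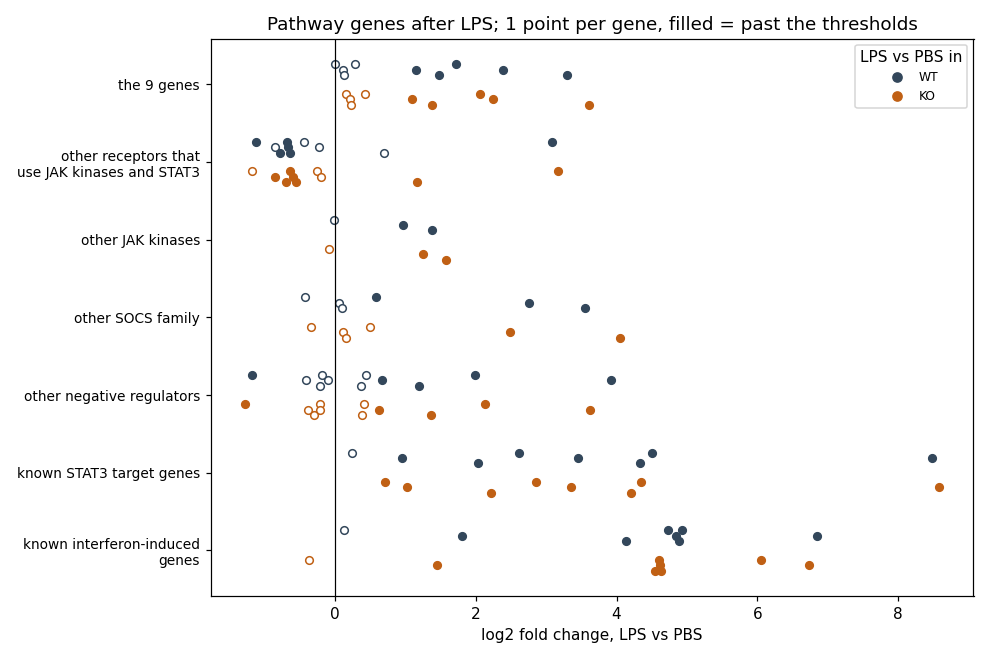
Log2FC with LPS of the 9 genes, of groups of other JAK and STAT signalling genes and of known STAT3 targets and interferon-induced genes. There is 1 point per gene in WT and in KO, filled where past the thresholds. The 4 interferon receptor genes are the open points near 0 in the top row, and 14 of the 16 genes in the lowest 2 rows are filled in WT and 15 in KO.

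Between KO and WT, none of the 36 other signalling genes tested was called after LPS or with PBS, and none passed the interaction threshold. Jak1 had a log2FC of 0.35 after LPS with an unadjusted p of 0.0196 in edgeR, under the fold threshold. Of the interferon-induced genes, 1 of 8 was called lower in KO in each treatment, where 0.763% of all genes were called lower after LPS and 0.576% with PBS. After LPS this was Ciita, the activator of MHC class II genes and a classical target of interferon gamma, with 5.14 to 10.7 CPM in WT and 2.7 to 6.04 CPM in KO (log2FC −0.83, unadjusted p = 0.0022, adjusted p = 1 in edgeR). With PBS it was Cxcl9, with 0.209 to 6.00 CPM (median 0.615) in WT and 0.108 to 0.660 CPM (median 0.323) in KO (log2FC −2.28, unadjusted p = 0.00571, adjusted p = 1 in edgeR). The value for Cxcl9 rested on WT PBS replicate 2, the library with 6.00 CPM, and was −0.30 without it (unadjusted p = 0.595 in edgeR), an alternative chosen after seeing the data. Leaving out any 1 mouse kept Ciita called, with log2FC values of −1.02 to −0.65. The groups overlapped for both genes. After LPS 7 of these 8 genes had a log2FC below 0, with a median of −0.40, beside 0.02 over all genes tested, while the STAT3 targets had a median of 0.08 with 4 of 8 below 0. The 4 monocyte markers also had log2FC values below 0 after LPS, from −0.66 to −0.28, and none was called. Their part in the values of the interferon-induced genes was not tested.

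The 9 genes also differed in how they varied from mouse to mouse. Deviations of log2 CPM from the 4 group means were compared over the 19 libraries, which share their depth and their cells between genes. Ifnar1 and Ifnar2 deviated together (r = 0.83), and Jak2 deviated with both (0.801 and 0.865). Ifngr2 followed Ifnar2 (0.741) and Ifnar1 (0.654), whereas Ifngr1 had values from −0.299 with Jak2 to 0.398 with Ifngr2. Stat2 and Socs1 had 0.663, Socs1 and Socs3 0.559, and Stat3 and Socs3 0.426. Over these libraries the chains of the type I receptor thus had a higher r than those of the interferon gamma receptor. Ifnar1 varied more after LPS (coefficient of variation 18.6% in both genotypes) than with PBS (5.44% in WT and 7.78% in KO). The LPS libraries therefore weigh most in its r, and r was not computed within each treatment.

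Over all 19 libraries the genes with the pattern most like each member were found by Pearson's r of log2 CPM. For Stat2 these were Mx1 (0.993) and Ifi204 (0.992), for Stat3 Trim30c (0.992) and Rbpj (0.991), and for Socs3 Ier3 (0.995) and Map3k8 (0.994). For Jak2 they were Tbc1d1 and Pik3r5 (both 0.982), and for Socs1 Gadd45a (0.946) and Zswim4 (0.924). These r values include the difference between LPS and PBS libraries, which the points share. The best values of the receptor genes were Tgs1 at 0.965 for Ifngr2, Tk1 at 0.925 for Ifnar1, Ptafr at 0.925 for Ifnar2 and Exosc5 at 0.895 for Ifngr1.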

How the data were processed

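RNA of MACS-sorted CD11b+ brain cells from 19 mice was depleted of ribosomal RNA and sequenced by the authors in paired reads of 75 bp from stranded libraries. The authors trimmed the reads with Cutadapt and aligned them with STAR 2.7.9a to GRCm39. The deposited values are raw counts per Ensembl gene, without normalization. How strand was used in counting is not given in the sources used here.

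Counts were tested in R 4.3.3 with edgeR 4.0.16 (filterByExpr with a minimum count of 10 and a minimum total of 15, TMM, 1 quasi-likelihood fit of all 19 libraries with 4 groups), with p-values adjusted by Benjamini-Hochberg over 18739 genes. Intervals are 95%. The procedure was tested on simulated data. CPM were scaled with TMM, and log2 ratios used count + 0.5. Names and coordinates came from GENCODE M39, which named 56236 of 56980 genes. No pair of libraries in a group was alike within sampling noise (chi-square of at least 6.5 per degree of freedom). The mice are separate animals.

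The 9 genes and the lists were chosen with earlier results of these data known. All 9 genes are given. Of each list of components or targets, the 2 genes with the largest change in WT among those called in both genotypes are named, with any gene called between KO and WT. Some of what this rule takes is not reported here. Gzma, Ncr1, Il6st, Il6ra, Tyk2, Pias3, Jak1 (between genotypes) and the uncalled Socs4, Socs5 and Socs6 were named after their values were seen.

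Alternatives were other filters, scalings and thresholds, DESeq2 1.42.0, the groups compared alone, a replicate block, ribosomal RNA and mitochondrial genes left out, each mouse left out, another gene length, and another pseudocount.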

Additional observations from a re-analysis of the deposited data

Results flagged for a closer look

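Of 52 groups of 4 or 5 libraries checked for a library far from the others, 1 was flagged, and chance flags about 1 in 20 such groups. It was the ratio of Stat2 to Stat3 per kb in KO LPS libraries, where replicate 4 had 0.480 and the group's median was 0.326. Its gap to the nearest library was 0.818 of the group's range, above the limit of 0.71. Without this library the log2 ratio in KO was higher with LPS by 0.087, in place of 0.20.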

How the results depend on the processing

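The 10 log2FC values called with LPS kept their direction and stayed past the threshold in all 165 alternatives. Of 654 alternatives for the 35 values not called, 605 kept direction and side, 47 changed sign and 2 passed a threshold; the cause was not tested. With LPS in WT, Ifnar1 had −0.025 with no low-count filter, −0.055 with 10 counts in every sample, −0.0133 with DESeq2 size factors, −0.0135 in DESeq2 and −0.0256 with the groups compared alone. With PBS and these filters, KO against WT gave −0.00897 and −0.00761 for Ifngr2 and −0.00167 and −0.00326 for Stat3. Leaving out 1 mouse gave 5 to 5 genes called higher with LPS in WT, 5 to 6 in KO, and 0 to 1 called lower in KO against WT after LPS, the 1 being Socs1 without KO LPS replicate 5. Values that changed sign or call ranged as follows over these fits. With LPS, Ifnar1 in WT had −0.087 to 0.103 and Ifngr2 in KO 0.37 to 0.50. For KO against WT after LPS the ranges were −0.20 to 0.045 (Ifngr1), −0.072 to 0.18 (Ifnar2), −0.041 to 0.26 (Jak2) and −0.77 to −0.25 (Socs1). With PBS they were −0.079 to 0.11 (Ifngr2), −0.070 to 0.0044 (Ifnar1), −0.11 to 0.068 (Ifnar2), −0.014 to 0.078 (Stat3) and −0.20 to 0.011 (Socs3). For the interaction they were −0.093 to 0.15 (Ifngr1), −0.029 to 0.22 (Ifnar2), −0.17 to 0.14 (Jak2) and −0.43 to 0.099 (Socs1). The log2 ratio of Ifnar1 to Ifnar2 ranged from −0.058 to 0.030 with LPS in KO and from −0.083 to 0.078 between genotypes with PBS. With the longest transcript as length, WT PBS levels per kb were 284 (Ifngr1), 43.5 (Ifngr2), 29.02 (Ifnar1), 9.23 (Stat2), 32.5 (Stat3) and 73.1 (Socs3). DESeq2 size factors moved the median of all genes by at most 0.028 (log2).

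Of 9 pairs of same-numbered LPS and PBS libraries, 7 correlated at 0.154 to 0.576 in their deviations from the group means, and 2 at −0.0418 (WT replicate 3) and 0.0265 (KO replicate 3). The numbers were not taken to pair the mice, since this needed every pair over 0.1. Under a replicate block, 5 genes rose with LPS in each genotype. The block changed the sign of Ifnar1 with LPS in WT (−0.059) and of the interaction of Jak2 (0.022) and Socs1 (0.11), and changed no call.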
